A study of Homo sapiens with 6 samples.

Results

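The genes described here carry out the last step of vesicle traffic, the docking and fusion of a vesicle with its target membrane, or are proteins of the synaptic vesicle itself. They were taken by symbol, and the symbols were chosen with earlier results of these data known. The symbols take all synaptotagmins (SYT), synaptotagmin-like genes (SYTL), syntaxins (STX), syntaxin-binding proteins (STXBP), VAMP, complexin (CPLX), SV2, UNC13 and RIMS genes, with SNAP23, SNAP25, SNAP29, SNAP47, SNAP91, SYN1, SYN2, SYN3, SYP and NSF. The files list 49 such genes among 12010 named genes, and 47 of them were tested, those whose mean across libraries reached 0.5 FPKM. FPKM corrects a fragment count for transcript length and library size, so that levels of different genes can be set side by side. A further 28 protein-coding genes that the symbols also take were not analysed here, among them SYT1, CPLX2, RIMS1, SV2B, SV2C, SYN2, SYN3 and VAMP5.

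The cells were 92.1, a human uveal melanoma line. One group of 3 libraries came from cells given DMSO, the solvent, and the other group of 3 from cells given 0.1 µM LBH589 (panobinostat), an inhibitor of histone deacetylases, each for 24 h. Both groups come from the same line, so any trait of that line is shared by controls and treated cells. The labels name no separate cultures, and p-values therefore measure only the spread between these libraries, which may be technical.

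As background, membrane fusion is driven by SNARE proteins. A vesicle SNARE of the VAMP family pairs with a syntaxin and a SNAP25-type SNARE on the target membrane, and the 4-helix bundle that they form pulls the membranes together. Munc18 proteins hold and template syntaxin, UNC13 and RIMS proteins prime vesicles, complexins clamp the bundle, synaptotagmins read the calcium signal, and NSF takes spent bundles apart. Every cell uses these families for secretion and for traffic between Golgi, endosomes and plasma membrane, pigment cells use some of them for melanosome cargo, and neurons and endocrine cells add their own members for regulated release.

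Summed FPKM lay between 397174 and 422630 in the DMSO libraries and between 355148 and 367222 in the LBH589 libraries, and the files hold no counts, so depth is unknown. All 7 melanocyte markers checked were listed in the DMSO libraries, with TYRP1 between 1769 and 1836 FPKM, as the labelled cell type has it, and 6 of the 7 fell with LBH589. Of 8 neuron markers, 3 were listed, MAP2, SLC17A7 and NEUROD1, and their summed level rose from between 0.527 and 0.949 FPKM to between 19.2 and 26.5 FPKM. NEUROD1 was listed at 0 FPKM under DMSO, and RBFOX3, SLC17A6, SLC32A1, GAD1 and GAD2 were not analysed here. Of 6 endocrine markers, only CHGA was listed, and it rose from between 0.154 and 0.256 FPKM to between 94.8 and 125 FPKM. Of the listed fibroblast and epithelium markers, COL1A1, LUM and EPCAM also rose, to at most 4.12 FPKM in any library. The fibroblast marker PDGFRA had means of 0.469 FPKM under DMSO and 0.511 FPKM under LBH589, with overlapping groups, and was below the level tested. The immune marker CD68 did not pass. In bulk RNA, a change in the make-up of the cells and a change in RNA per cell cannot be told apart. The part that this wider change plays in the values below was not tested.

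The comparison asks which parts of the fusion machinery differ in level after 24 h of the drug. Of the 47 tested members, 27 rose and 2, STXBP6 and STX2, fell (limma on log2(FPKM + 1), adjusted p below 0.05). Over all 11520 tested genes, 27.2% rose and 21.6% fell. All 3 LBH589 values lay above all 3 DMSO values in 31 of the 49 listed members and below them in 2, where these shares were 33.0% and 26.5% over all tested genes. The median difference was 0.77 on the log2(FPKM + 1) scale over the tested members and 0.08 over all tested genes. The members together held between 356 and 378 FPKM per DMSO library and between 458 and 505 FPKM per LBH589 library, or between 0.0842 and 0.0952% and between 0.125 and 0.139% of all FPKM.

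Part of those counts and of that median difference follows from the filter. For 14 members the DMSO mean was below 0.5 FPKM, so they could be listed only through their LBH589 values; all 12 of these that were tested rose, as did 79.1% of all such tested genes, and 84.5% of such genes had all LBH589 values above all DMSO values. The 35 members with a DMSO mean of at least 0.5 FPKM were all tested. Among them, 15 rose (42.9%) and 2 fell (5.71%), beside 23.8% and 23.0% of all tested genes with such a DMSO mean. The median log2 difference was 0.34 over these 35 members and 0.02 over all such tested genes. When library sums were made equal, 29 members rose and 2 fell, beside 32.5% and 17.3% of all genes, and the median of all tested genes moved from 0.08 to 0.23.

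**Figure D1:**
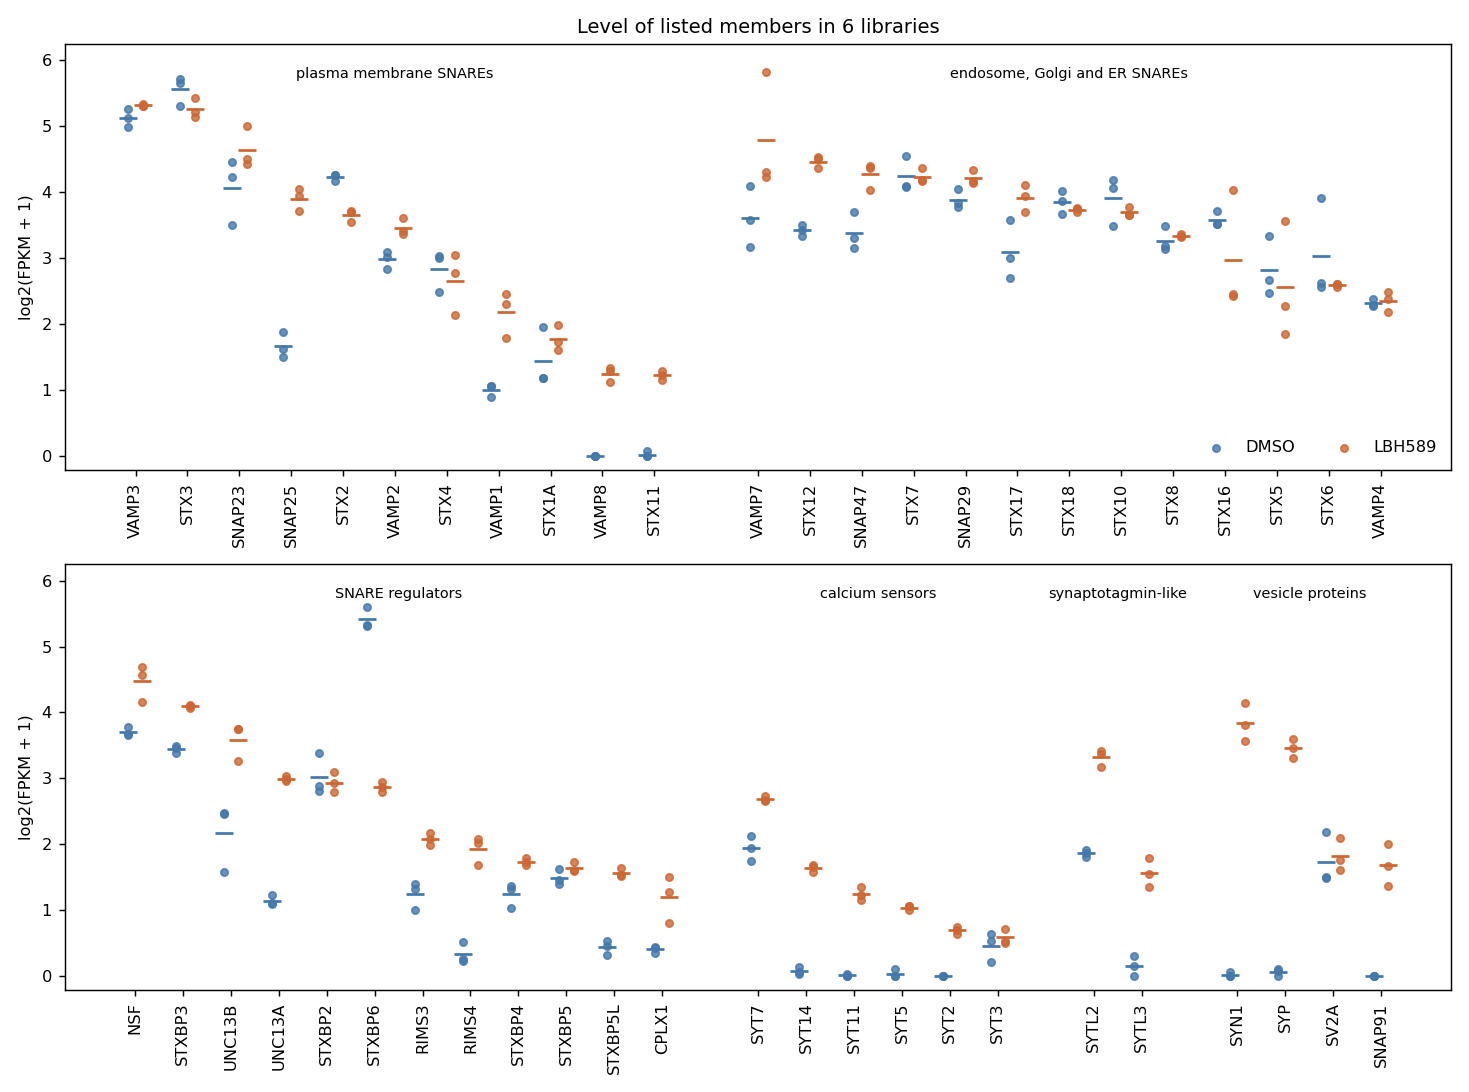
Level of the listed members on the log2(FPKM + 1) scale (vertical axis), by role and in order of LBH589 level; points are libraries (blue DMSO, orange LBH589, 3 each) and short lines are group means. SYN1, SYP and SNAP91 lie at or near 0 in DMSO and clear of it in LBH589, while STXBP6 is the member that drops furthest and VAMP7 and STX16 each have 1 LBH589 library apart from the others.

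**Figure D2:**
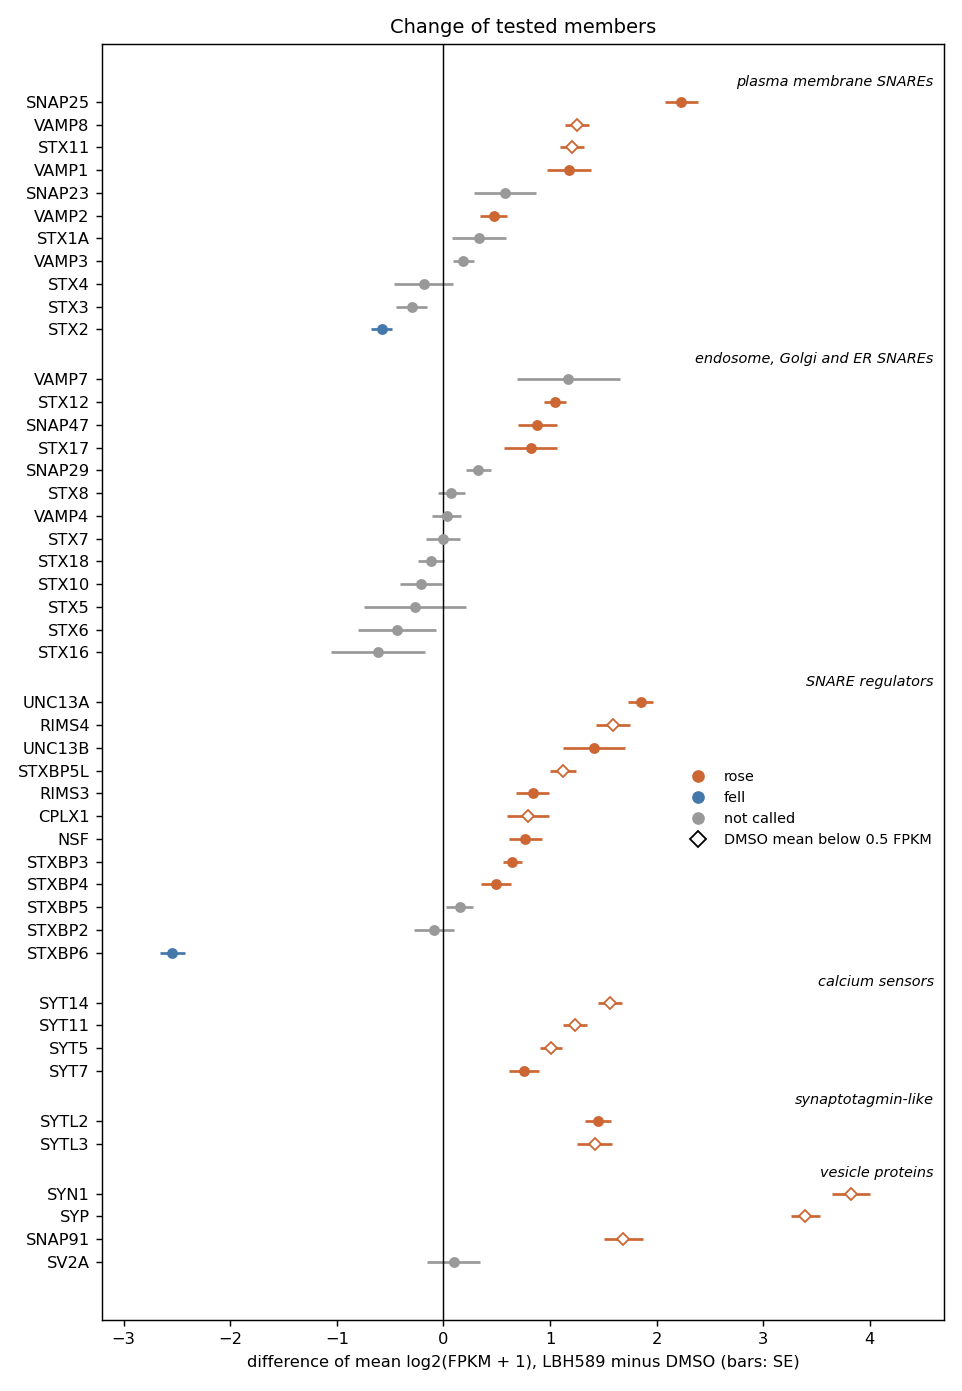
Difference of mean log2(FPKM + 1), LBH589 minus DMSO, for tested members by role; bars are the SE from the limma fit, orange marks rises, blue falls and grey members not called, and open diamonds are members with a DMSO mean below 0.5 FPKM. The rises run from 0.47 (VAMP2) to 3.82 (SYN1), and most endosome, Golgi and ER SNAREs lie near 0.

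The largest rises were those of SYN1 and SYP, proteins of the synaptic vesicle surface and membrane. SYN1 encodes synapsin, which tethers vesicles to each other and to actin (ENST00000340666.5_2 is its most abundant listed transcript). It was listed at 0, 0.0433 and 0 FPKM under DMSO replicates 1 to 3 and at 10.9, 13.0 and 16.7 FPKM under LBH589 replicates 1 to 3. The groups are far apart, with a log2 difference of 3.82 (SE 0.18, adjusted p = 3.71e-05). SYP encodes synaptophysin, a membrane protein of the vesicle used as a marker of neuroendocrine cells (ENST00000263233.8_2). Its values were 0.0791, 0.0547 and 0 FPKM under DMSO and 8.97, 11.1 and 10.0 FPKM under LBH589 (log2 difference 3.40, SE 0.13, adjusted p = 2.43e-05). Because DMSO values include a listed 0, no fold is given for either gene.

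SNAP91, also called AP180, which builds clathrin coats when vesicles are retrieved, was listed at 0 FPKM in all 3 DMSO libraries and at 3.04, 2.21 and 1.58 FPKM under LBH589 (log2 difference 1.69, adjusted p = 6.59e-04). None of its 3 listed transcripts reached the level tested. SNAP91-211 held 11.0, 34.5 and 100% of the sum under LBH589 replicates 1 to 3. SV2A, a transporter-like glycoprotein of the vesicle, did not pass. It was at 3.55, 1.82 and 1.83 FPKM under DMSO and at 2.06, 2.39 and 3.29 FPKM under LBH589, so the groups overlap (log2 difference 0.10, SE 0.25, adjusted p = 0.778). Of 4 listed vesicle proteins, 3 thus rose, all from a DMSO mean below 0.5 FPKM, where 79.1% of all tested genes rose.

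SYN1 is a textbook target of REST, the factor that keeps neuronal genes silent in other cells by bringing histone deacetylases to a DNA element named RE1, so its promoter is shown with SYP for comparison. The sequences are the 250 bases before each start site, on GRCh38.p14, from RefSeq, with matches to the RE1 letters in capitals.
SYN1 promoter, chrX:47619858-47620107, minus strand: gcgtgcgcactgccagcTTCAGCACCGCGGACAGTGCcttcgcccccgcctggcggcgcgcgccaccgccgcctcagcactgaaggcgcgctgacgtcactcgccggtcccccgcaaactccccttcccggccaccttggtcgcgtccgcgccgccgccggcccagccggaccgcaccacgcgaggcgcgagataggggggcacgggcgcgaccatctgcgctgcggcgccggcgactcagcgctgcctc
SYP promoter, chrX:49200194-49200443, minus strand: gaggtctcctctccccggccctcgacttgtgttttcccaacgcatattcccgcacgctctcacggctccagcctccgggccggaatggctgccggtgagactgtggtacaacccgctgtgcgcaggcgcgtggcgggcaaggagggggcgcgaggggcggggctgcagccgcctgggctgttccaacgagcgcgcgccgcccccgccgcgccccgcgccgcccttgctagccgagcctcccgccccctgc

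The letters searched, on both strands of windows from 250 bases before to 50 bases after each start, were a left arm TTCAGCACC, a right arm GGACAGNGC (N is any base) and the full element, the left arm followed after 2 bases by the right arm. Each arm overlaps the full element. The full element stood in 3 of 35116 windows (0.00854%), and SYN1 was the only member with it among the 41 members that have a window. It lies from -233 to -214 relative to the start. The left arm was in 0.376% of windows and the right arm in 2.32%. Among members, the left arm was found in SYN1 and UNC13A and the right arm in SYN1, UNC13A and STXBP2. In UNC13A both arms stand on the strand opposite to the gene, with 8 bases between them in place of 2, from -11 to 15 around the start.
UNC13A site, chr19:17688338-17688367, minus strand: agGCGCTGTCCgcgcccccGGTGCTGAAcc
Of these 3 genes SYN1 and UNC13A rose and STXBP2 did not pass. A match here is a description of letters and not of binding, which was not measured, and the SYP window without a match says only that these letters are not in it. CpG counts were close when each gene was given its window with the most CpG. Their median was 28 in the 19 risen members with a window, 28.5 in the 18 members not called and 29 in all tested genes with a window. REST was at 10.9, 11.6 and 11.2 FPKM under DMSO and at 9.17, 6.37 and 9.51 FPKM under LBH589, a difference that did not pass (adjusted p = 0.0849). Of 6 tested genes of REST and its corepressors, 2 rose and 4 did not pass. All 6 had a DMSO mean of at least 0.5 FPKM, and 23.8% of all such tested genes rose. RCOR2, a CoREST protein, rose from 1.27 ± 0.360 to 4.05 ± 0.115 FPKM (adjusted p = 0.00160). SIN3A, another corepressor, rose from 15.9 ± 2.25 to 21.1 ± 1.00 FPKM (adjusted p = 0.0423), a call lost with equal medians (0.0827), after quantile normalization (0.0551), with plain limma (0.0502), without DMSO replicate 3 (0.0652), without any 1 LBH589 library (between 0.0815 and 0.126) and with the most abundant transcript alone (0.180). EHMT2, a histone methyltransferase, did not pass (adjusted p = 0.303). CPLX1, RIMS4, SNAP25, STX17, STXBP4, SYT7 and SYTL2 had no entry in the RefSeq promoter table.

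Among the SNAREs that act at the plasma membrane, SNAP25, VAMP1 and VAMP2 rose. SNAP23, VAMP3, STX3 and STX4, found in most cells, did not pass, and neither did the sum of the synaptic STX1A, described below. Of 11 tested, 5 rose (SNAP25, VAMP1, VAMP2, VAMP8 and STX11) and 1, STX2, fell. VAMP8 and STX11 had a DMSO mean below 0.5 FPKM, so they could be listed only through their LBH589 values. Among the 9 with a DMSO mean of at least 0.5 FPKM, 3 rose (33.3%) and 1 fell. Over all such tested genes the shares were 23.8% and 23.0%. SNAP25, the target-membrane SNARE of neurons and endocrine cells, was at 2.09, 2.70 and 1.84 FPKM under DMSO and at 15.6, 12.1 and 14.5 FPKM under LBH589. All LBH589 values were above all DMSO values, a 6.36-fold difference of means (log2 difference 2.23, SE 0.16, adjusted p = 1.27e-04). Its widely expressed relative SNAP23 was at 10.3, 21.1 and 17.8 FPKM under DMSO and at 31.0, 20.5 and 21.7 FPKM under LBH589, with overlapping groups (log2 difference 0.58, adjusted p = 0.148). SNAP25 thus stood at between 10.3 and 20.3% of the SNAP23 level in the DMSO libraries and at between 50.1 and 66.8% in the LBH589 libraries, and remained the lower of the pair in all 6.

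SNAP25 exists as SNAP25a and SNAP25b, which differ by the use of 1 of 2 neighbouring copies of exon 5. The a form is known from embryonic neurons and neuroendocrine cells, and the b form becomes the main form of the mature brain. Both transcripts are listed, and the exons are shown because they tell the forms apart: each has 118 bases, and the capitals mark the 31 bases at which they differ, so that they are 73.7% identical. The letters were cut from GENCODE release 29 transcripts.
SNAP25-202, exon 5 of SNAP25a: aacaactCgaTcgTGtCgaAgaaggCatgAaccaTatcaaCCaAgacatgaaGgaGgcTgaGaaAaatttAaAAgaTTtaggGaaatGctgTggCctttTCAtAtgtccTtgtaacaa
SNAP25-201, exon 5 of SNAP25b: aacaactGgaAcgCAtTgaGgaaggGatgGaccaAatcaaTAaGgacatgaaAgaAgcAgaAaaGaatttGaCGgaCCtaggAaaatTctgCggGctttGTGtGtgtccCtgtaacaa
The SNAP25a transcript (ENST00000304886.6_2) was at 1.82, 2.06 and 1.19 FPKM under DMSO and at 14.3, 9.37 and 13.2 FPKM under LBH589 (log2 difference 2.30, adjusted p = 0.00337 over all tested transcripts). The SNAP25b transcript (ENST00000254976.6_3) was at 0.273, 0.640 and 0.644 FPKM under DMSO and at 1.23, 2.76 and 1.31 FPKM under LBH589. Its groups did not overlap but the difference did not pass (log2 difference 0.83, adjusted p = 0.109). SNAP25a made up 87.0, 76.3 and 64.9% of SNAP25 in DMSO and 92.1, 77.3 and 91.0% in LBH589, overlapping ranges in which it was the main form in every library.

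The vesicle SNAREs that pair with these differed in the size of their change. VAMP2, synaptobrevin, the vesicle SNARE of most synapses, was at 7.15, 6.20 and 7.56 FPKM under DMSO and at 9.64, 9.33 and 11.2 FPKM under LBH589, a 1.44-fold difference (log2 difference 0.47, adjusted p = 0.0225). That call ended without DMSO replicate 2 (adjusted p = 0.0694), LBH589 replicate 1 (0.0580) or LBH589 replicate 3 (0.0756), and with the most abundant transcript alone (0.0514). VAMP1, its relative in motor neurons and spinal cord, was at 1.10, 1.09 and 0.862 FPKM under DMSO and at 2.45, 3.97 and 4.53 FPKM under LBH589, a 3.59-fold difference (log2 difference 1.18, adjusted p = 0.00428). VAMP3, cellubrevin, the form of most other cells, was the most abundant VAMP by mean in both groups. Its values were 37.4, 34.1 and 31.0 FPKM under DMSO and 38.5, 39.5 and 38.7 FPKM under LBH589, which did not overlap and did not pass (log2 difference 0.19, adjusted p = 0.166). With library sums made equal VAMP3 passed, at a log2 difference of 0.36 (adjusted p = 0.0328).

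VAMP8 and STX11, SNAREs of granule release in blood, immune and exocrine cells, appeared from near 0. VAMP8 was listed at 0 FPKM in all DMSO libraries and at 1.54, 1.18 and 1.44 FPKM under LBH589 (log2 difference 1.25, adjusted p = 3.31e-04). STX11 was listed at 0, 0 and 0.0555 FPKM under DMSO and at 1.47, 1.35 and 1.23 FPKM under LBH589 (log2 difference 1.21, adjusted p = 3.17e-04). Of the syntaxins of the cell surface, STX3, which serves apical and other regulated secretion, was the most abundant, at 38.8, 49.5 and 51.6 FPKM under DMSO and at 36.3, 34.2 and 42.4 FPKM under LBH589. The STX3 groups overlap (log2 difference -0.30, adjusted p = 0.139), though without DMSO replicate 1 the fall passed (-0.42, adjusted p = 0.0324). STX4, the syntaxin of constitutive secretion and of glucose transporter delivery, was at 7.01, 4.63 and 7.22 FPKM under DMSO and at 3.43, 5.89 and 7.27 FPKM under LBH589 (adjusted p = 0.618). STX2, also called epimorphin, fell from between 17.1 and 18.3 FPKM to between 10.8 and 12.1 FPKM (log2 difference -0.58, SE 0.10, adjusted p = 0.00373), a call that ended with the most abundant transcript alone (adjusted p = 0.0608).

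STX1A, the syntaxin of synaptic release, did not pass as a sum, while one of its transcripts rose. The sum was at 2.90, 1.27 and 1.28 FPKM under DMSO and at 2.06, 2.34 and 2.96 FPKM under LBH589 (log2 difference 0.34, SE 0.25, adjusted p = 0.317; 0.0293 without DMSO replicate 1). STX1A-201 (ENST00000222812.7_1), which has 10 exons, was at 0.230, 0.134 and 0.376 FPKM under DMSO and at 1.86, 2.12 and 2.76 FPKM under LBH589 (log2 difference 1.37, adjusted p = 0.00888). STX1A-203 (ENST00000395155.3_1), which shares exons 2 to 8 but ends in a different exon 9, was at 2.67, 1.14 and 0.899 FPKM under DMSO and at 0.206, 0.225 and 0.201 FPKM under LBH589. The fall of STX1A-203 did not pass (log2 difference -1.02, adjusted p = 0.0707), although its groups did not overlap, and it passed with a pseudocount of 0.1 (-2.28, adjusted p = 0.0384) and after quantile normalization (-1.10, 0.0459). STX1A-201 held 7.96, 10.6 and 29.5% of STX1A in DMSO and 90.0, 90.4 and 93.2% in LBH589. These shares do not overlap between the groups. They rest on the authors' split of fragments between transcripts that share most of their exons.

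**Figure D3:**
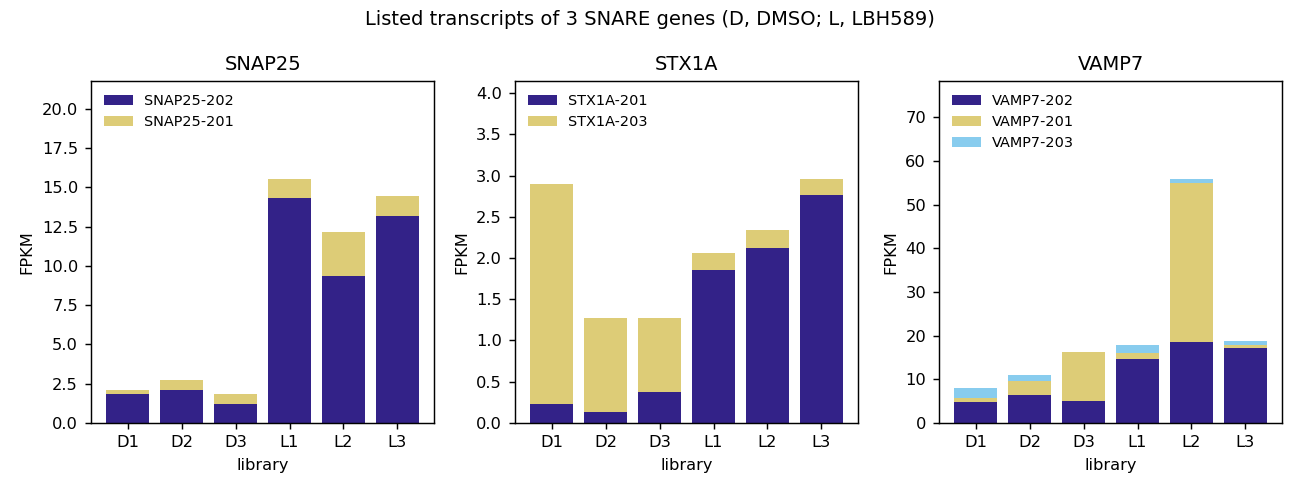
FPKM (vertical axis) of each listed transcript of SNAP25, STX1A and VAMP7 in the 6 libraries (D1 to D3, DMSO; L1 to L3, LBH589), stacked to the gene's sum. SNAP25-202 carries most of SNAP25 throughout, STX1A is mostly STX1A-203 in DMSO and STX1A-201 in LBH589, and the tall VAMP7 bar of LBH589 replicate 2 is VAMP7-201 at 36.5 FPKM.

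Of 95 tested transcripts of the members, 25 rose and 3 (STXBP6-201, STX5-201 and STX2-203) fell, beside 8.62% and 7.33% of all tested transcripts. Most of the 25 had a DMSO mean below 0.5 FPKM, so they could be listed only through their LBH589 values. The share of all such transcripts that rose was not taken, so the count of rises cannot be read as a result about the members. The count of rises was 16 without LBH589 replicate 2. In SYN1, SYP and UNC13A both tested transcripts of the gene rose. SYN1-202 was listed at 0 FPKM under DMSO and was at 7.54, 8.06 and 8.25 FPKM under LBH589, and SYN1-201 was at 2.56, 2.28 and 7.80 FPKM there. UNC13A-204 was listed at 0, 0.00329 and 0 FPKM under DMSO and at 2.15, 3.29 and 3.69 FPKM under LBH589 (log2 difference 1.99, adjusted p = 0.00365), while UNC13A-202 accounted for nearly all of the DMSO level. STX5-201, the main transcript in DMSO of a Golgi syntaxin, was at 6.36, 4.54 and 5.02 FPKM there and at 1.48, 1.44 and 0.681 FPKM under LBH589 (adjusted p = 0.0133). The STX5 sum overlapped between the groups, since STX5-203 was at 9.13, 0 and 1.48 FPKM under LBH589.

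Of 13 tested regulators of the SNARE bundle, 10 rose, 1 fell and 2 (STXBP2 and STXBP5) did not pass. Among the 10 of them with a DMSO mean of at least 0.5 FPKM, 7 rose and 1 fell. Over all such tested genes the shares were 23.8% and 23.0%. CPLX1, RIMS4 and STXBP5L had a lower DMSO mean, and of all tested genes with such a mean 79.1% rose. UNC13A, or Munc13-1, which opens syntaxin and primes vesicles for release (ENST00000519716.6_1), was at 1.17, 1.34 and 1.14 FPKM under DMSO and at 6.93, 7.25 and 6.78 FPKM under LBH589. The groups are tight and apart, with a 5.74-fold difference (log2 difference 1.85, SE 0.12, adjusted p = 9.02e-05). UNC13B, a priming factor found also outside the nervous system, was at 4.52, 4.57 and 1.99 FPKM under DMSO and at 12.5, 12.4 and 8.59 FPKM under LBH589, a 3.02-fold difference (log2 difference 1.41, adjusted p = 0.00861). Its call ended with the most abundant transcript alone (adjusted p = 0.0992). Under DMSO replicate 3, UNC13B-201 was listed at 0 FPKM and UNC13B-209 at 1.99 FPKM. UNC13B-201 held nearly all of the sum in every other library. These transcripts are 6303 and 14550 bases long, and how far the split of fragments between them affects that low value was not tested.

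RIMS3 and RIMS4 encode the short gamma forms of the active zone protein RIM. RIMS4 was at 0.429, 0.202 and 0.177 FPKM under DMSO and at 2.22, 3.06 and 3.22 FPKM under LBH589 (log2 difference 1.59, adjusted p = 4.92e-04), and RIMS3 rose 2.34-fold, to 3.24 ± 0.256 FPKM (SD, n = 3, adjusted p = 0.00518). CPLX1, the complexin that clamps the assembled bundle until calcium enters, was at 0.351, 0.279 and 0.360 FPKM under DMSO and at 1.44, 0.761 and 1.84 FPKM under LBH589. It passed (log2 difference 0.79, adjusted p = 0.0169), but not after quantile normalization (adjusted p = 0.0938), without DMSO replicate 2 (0.0533) or without LBH589 replicate 1 (0.0525). CPLX2, CPLX3 and CPLX4 were not analysed here.

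Of the Munc18 proteins, STXBP3, the widely expressed Munc18c, went from 10.3, 10.1 and 9.41 FPKM to 16.3, 16.2 and 15.7 FPKM (log2 difference 0.65, SE 0.09, adjusted p = 0.00192). STXBP2, the Munc18-2 of epithelial and immune cells, was at 7.28 ± 1.87 FPKM under DMSO and 6.68 ± 0.806 FPKM under LBH589 (adjusted p = 0.722).

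STXBP6 fell, while the other called regulators of the SNARE bundle rose. It encodes amisyn, which has a VAMP-like helix, can enter the bundle in place of VAMP and is known as a brake on secretion (ENST00000323944.9_1). It was at 39.1, 38.8 and 47.6 FPKM under DMSO, where it was among the most abundant members, and at 5.93, 6.33 and 6.72 FPKM under LBH589. That is a 6.62-fold lower mean (log2 difference -2.54, SE 0.12, adjusted p = 3.85e-05), with the groups far apart. The tomosyns, STXBP5 and STXBP5L, carry a similar helix and also restrain release, and they did not fall. STXBP5L was at 0.252, 0.384 and 0.458 FPKM under DMSO and at 1.92, 1.87 and 2.13 FPKM under LBH589 (log2 difference 1.12, adjusted p = 6.33e-04), and STXBP5 was at 1.83 ± 0.242 and 2.14 ± 0.169 FPKM (adjusted p = 0.380). STXBP4, known as Synip, rose from 1.39 ± 0.295 to 2.33 ± 0.117 FPKM (adjusted p = 0.0298), which passed neither after quantile normalization (0.172), nor with the most abundant transcript alone (0.0600), nor without DMSO replicate 2 or any 1 LBH589 library (between 0.0553 and 0.0871).

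NSF, the ATPase that recycles SNAREs after fusion, was at 12.7, 11.8 and 11.7 FPKM under DMSO and at 24.7, 22.7 and 16.9 FPKM under LBH589, a 1.78-fold difference (log2 difference 0.77, adjusted p = 0.00773). With the most abundant of its 3 listed transcripts alone it did not pass (log2 difference 0.21, adjusted p = 0.711). The genome holds a near-identical partial copy of NSF, so the assignment of its fragments is uncertain.

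Synaptotagmins bind membranes through paired C2 domains, and in several of them calcium triggers that binding. Of 17 human members, counted by the numbered symbols, 6 are listed and 4 were tested. All 4 rose, 3 of them from a DMSO mean below 0.5 FPKM, where 79.1% of all tested genes rose. SYT7, a slow high-affinity sensor also used in lysosome exocytosis, had a measurable DMSO level, 3.37, 2.84 and 2.36 FPKM, and was at 5.38, 5.34 and 5.67 FPKM under LBH589 (log2 difference 0.75, adjusted p = 0.00567). SYT14 was at 0.0309, 0.0441 and 0.105 FPKM under DMSO and at 2.01, 2.14 and 2.23 FPKM under LBH589 (log2 difference 1.56, adjusted p = 1.23e-04). SYT11 was at 0.0275, 0.00750 and 0 FPKM under DMSO and at 1.36, 1.23 and 1.57 FPKM under LBH589 (log2 difference 1.24, adjusted p = 3.29e-04). SYT11 and SYT14 are known as forms that do not bind calcium, so the family name does not describe what they do.

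SYT5, a sensor of dense-core vesicles, was listed at 0, 0.0771 and 0 FPKM under DMSO and at 1.00, 1.09 and 1.10 FPKM under LBH589 (log2 difference 1.01, adjusted p = 5.67e-04), on 1 listed transcript of 329 bases. SYT2, a fast sensor of synchronous release, was listed at 0 FPKM under DMSO and at 0.555, 0.625 and 0.686 FPKM under LBH589, below the level tested. Its listed transcript shares 2111 exon bases with PPP1R12B on the other strand, and PPP1R12B was at 1.83 ± 0.425 and 2.72 ± 0.743 FPKM. The kit is not stated to keep strand, so fragments of the pair cannot be told apart. SYT3 was at 0.390 ± 0.209 and 0.513 ± 0.122 FPKM, also below the level tested, with overlapping groups.

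Synaptotagmin-like proteins bind RAB27 on secretory granules and melanosomes and link them to the plasma membrane. SYTL2 was at 2.52, 2.77 and 2.67 FPKM under DMSO and at 8.06, 9.70 and 9.33 FPKM under LBH589, a 3.40-fold difference (log2 difference 1.45, SE 0.12, adjusted p = 2.36e-04). SYTL3 was listed at 0, 0.122 and 0.233 FPKM under DMSO and at 1.57, 1.94 and 2.48 FPKM under LBH589 (log2 difference 1.42, adjusted p = 7.77e-04). With the most abundant transcript alone neither passed (adjusted p = 0.174 and 0.133). RAB27A, the GTPase that they bind and that ties melanosomes to their transport machinery, moved the other way, from 13.0, 13.8 and 24.6 FPKM to 4.16, 3.58 and 3.01 FPKM (log2 difference -1.93, adjusted p = 0.00156).

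Of 13 tested SNAREs of endosomes, Golgi and endoplasmic reticulum, 3 rose (23.1%) and 0 fell by the limma test (adjusted p below 0.05), with a median log2 difference of 0.03. All 13 had a DMSO mean of at least 0.5 FPKM, and 23.8% of all such tested genes rose. At an unadjusted p below 0.05, 4 were higher and 0 lower. STX12, the recycling endosome syntaxin that also serves cargo delivery to melanosomes, was the firmest, at 10.4, 9.84 and 9.09 FPKM under DMSO and 21.7, 22.3 and 19.6 FPKM under LBH589 (2.17-fold, log2 difference 1.04, SE 0.10, adjusted p = 4.64e-04). SNAP47, a SNAP25 relative of internal membranes, rose from 9.64 ± 2.16 to 18.4 ± 2.57 FPKM (adjusted p = 0.00887). STX17, which joins autophagosomes to lysosomes, was at 7.86 ± 2.83 and 14.2 ± 2.15 FPKM (adjusted p = 0.0349). The STX17 call ended without DMSO replicate 1 or 2 (adjusted p = 0.0888 and 0.0856), without any 1 LBH589 library (between 0.0512 and 0.107), and with the most abundant transcript alone (0.357).

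VAMP7, a vesicle SNARE of lysosomes and melanosomes, was at 8.02, 11.0 and 16.2 FPKM under DMSO and at 17.8, 55.9 and 18.8 FPKM under LBH589. LBH589 replicate 2 stands apart, and the difference did not pass (log2 difference 1.17, SE 0.48, adjusted p = 0.0916; 0.65 and 0.136 without that library). The excess was in 1 transcript, VAMP7-201, at 36.5 FPKM there and at 1.35 and 0.729 FPKM under LBH589 replicates 1 and 3. VAMP7-202 was at 4.69, 6.42 and 4.92 FPKM under DMSO and at 14.5, 18.5 and 17.2 FPKM under LBH589 (log2 difference 1.49, adjusted p = 0.00494). STX16, a syntaxin of the trans-Golgi network, was at 12.2, 10.4 and 10.5 FPKM under DMSO and at 4.38, 15.4 and 4.51 FPKM under LBH589, and again LBH589 replicate 2 was the library apart. Without it, STX16 passed as a fall (log2 difference -1.14, adjusted p = 0.00336, against -0.61 and 0.300 with it).

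The other internal SNAREs were at group means between 4.01 and 18.2 FPKM in both groups and did not pass. STX7 and STX8 of late endosomes were at 18.2 ± 3.70 and 17.9 ± 1.46 FPKM and at 8.71 ± 1.31 and 9.16 ± 0.161 FPKM under DMSO and LBH589. STX18 of the endoplasmic reticulum was at 13.5 ± 1.72 and 12.3 ± 0.227 FPKM, STX10 at 14.4 ± 3.71 and 12.0 ± 0.581 FPKM, and VAMP4 at 4.01 ± 0.206 and 4.13 ± 0.536 FPKM. Without DMSO replicate 3, STX10 passed as a fall (log2 difference -0.43, adjusted p = 0.0274, against -0.21 and 0.412 with it). STX6 was at 14.1 FPKM under DMSO replicate 1 and between 4.93 and 5.17 FPKM in the other 5 libraries. SNAP29 was higher in every LBH589 library (17.6 ± 1.45 against 13.9 ± 1.46 FPKM) without passing (adjusted p = 0.0613), though it passed with library sums made equal (0.0228) and without DMSO replicate 1 (0.0257).

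Genes of the same machinery with other names were taken from lists of roles. The 12 tested SNAREs outside the symbols used above all had a DMSO mean of at least 0.5 FPKM. Over all such tested genes 23.8% rose and 23.0% fell. Of the 12 SNAREs, 5 rose and 1 fell. They include SEC22B, which works between endoplasmic reticulum and Golgi, from 11.6 ± 0.825 to 26.4 ± 2.77 FPKM (adjusted p = 5.21e-04), its relatives SEC22A and SEC22C (adjusted p = 0.00864 and 0.0333), and the Golgi SNARE GOSR1, which fell from 10.5 ± 2.22 to 6.43 ± 0.319 FPKM (adjusted p = 0.0246). The GOSR1 call ended without DMSO replicate 2 or 3 (adjusted p = 0.0658 and 0.0641), without any 1 LBH589 library (between 0.0622 and 0.0780) and with the most abundant transcript alone (0.0671). The SEC22C call ended without the same libraries (between 0.0632 and 0.0997) and with the most abundant transcript alone (0.115), as did that of SEC22A in the last setting (0.759). The 8 NSF attachment and Sec1/Munc18 genes also had a DMSO mean of at least 0.5 FPKM. Of these 8, 0 rose and 1 fell by limma: SCFD2 went from 13.8 ± 1.22 to 5.37 ± 0.326 FPKM (adjusted p = 3.53e-04). Among these, SCFD1, NAPG and VPS45 had the next smallest adjusted p (0.0978, 0.0814 and 0.0789), and at an unadjusted p below 0.05, 2 of the 8 were higher and 1 was lower. All 3 passed as rises with library sums made equal (adjusted p = 0.0446, 0.0474 and 0.0193). SCFD1 also passed without LBH589 replicate 3 (0.0405) and NAPG and VPS45 without DMSO replicate 3 (0.0179 and 0.0489), and SCFD1 and VPS45 with the most abundant transcript alone (0.0498 and 0.0350).

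Of 11 tested active zone and dense-core vesicle priming genes, 5 rose and 2 fell. Among the 10 with a DMSO mean of at least 0.5 FPKM, 4 rose and 2 fell. Over all such tested genes the shares were 23.8% and 23.0%. PCLO, a scaffold of the active zone, rose from 4.34 ± 1.59 to 14.9 ± 2.15 FPKM (adjusted p = 0.00328). The RAB3 GTPases of secretory vesicles split: RAB3B rose from 0.550 ± 0.0982 to 4.71 ± 0.134 FPKM (adjusted p = 9.13e-05), and RAB3C went from at most 0.000871 FPKM under DMSO to between 2.18 and 2.31 FPKM (adjusted p = 8.04e-05), while RAB3A and RAB3D did not pass. The falls were RAB27A, given above, and CADPS2. Of 12 vesicle membrane genes that the symbols leave out, 5 rose and 3 fell. Among the 10 with a DMSO mean of at least 0.5 FPKM, 3 rose and 3 fell, beside the same 23.8% and 23.0%. The strongest change was the fall of SLC18B1, a vesicular polyamine transporter, from 39.6 ± 3.76 to 4.43 ± 0.466 FPKM (adjusted p = 2.85e-05). SYPL1, a widely expressed relative of synaptophysin, fell from 25.4 ± 1.65 to 18.6 ± 0.175 FPKM (adjusted p = 0.00971), a call lost with library sums made equal (0.0770) and with the most abundant transcript alone (0.506). SCAMP5, a carrier membrane protein of neurons, and SLC2A13, an inositol transporter, rose (adjusted p = 0.00872 and 0.00300). The DMSO mean of SCAMP5 was below 0.5 FPKM.

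The exocyst holds a vesicle at the plasma membrane before SNAREs engage. Of its 9 tested genes, all with a DMSO mean of at least 0.5 FPKM, 4 rose and 1 fell. Over all such tested genes 23.8% rose and 23.0% fell. EXOC1 rose from 16.4 ± 1.88 to 48.3 ± 3.48 FPKM (log2 difference 1.50, adjusted p = 1.72e-04) and EXOC6 from 2.84 ± 0.614 to 14.3 ± 0.680 FPKM (log2 difference 2.01, adjusted p = 1.58e-04), with smaller rises of EXOC2 and EXOC8 (0.67 and 0.72), and EXOC5 fell (-0.54, adjusted p = 0.0132). Of 15 tested genes of vesicle endocytosis, 8 rose and 1 fell. Among the 12 with a DMSO mean of at least 0.5 FPKM, 5 rose and 1 fell, beside the same 23.8% and 23.0%. SH3GL2, an endophilin of nerve terminals, was listed at 0.0312, 0 and 0 FPKM under DMSO and at 7.62, 6.27 and 8.34 FPKM under LBH589 (log2 difference 3.05, adjusted p = 3.71e-05). AMPH, amphiphysin, was listed at 0 FPKM under DMSO and at 3.55, 3.66 and 2.72 FPKM under LBH589 (adjusted p = 9.14e-05). SYNJ1, which strips the coat lipid from retrieved vesicles, rose from 5.23 ± 1.39 to 17.6 ± 0.128 FPKM (adjusted p = 8.17e-04), and DNM2, the dynamin of most cells, from 10.4 ± 1.33 to 20.9 ± 1.97 FPKM (adjusted p = 0.00174). The DNM2 call ended with the most abundant transcript alone (log2 difference 0.42, adjusted p = 0.297).

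**Figure D4:**
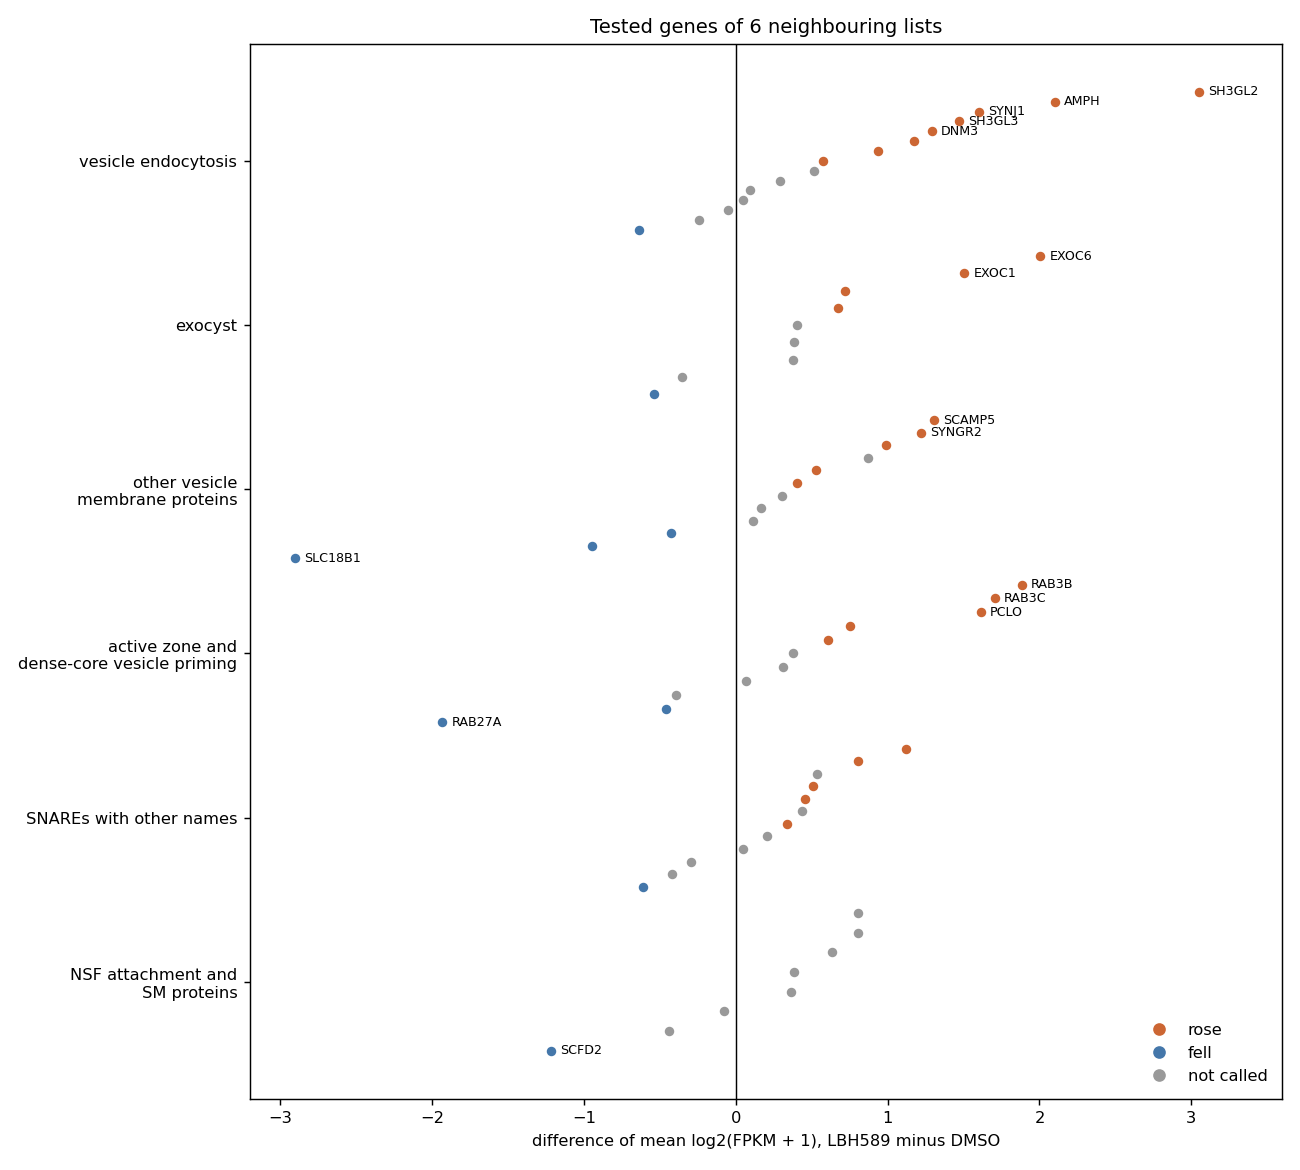
Difference of mean log2(FPKM + 1), LBH589 minus DMSO (horizontal axis), for tested genes of 6 neighbouring lists (vertical axis); each point is a gene, orange rose, blue fell, grey not called, and genes with a difference of at least 1.2 in size are named. Rises and falls occur in 5 of the 6 lists, and SH3GL2 (3.05) and SLC18B1 (-2.90) mark the ends.

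Listed exons of 7 members overlap those of a listed gene on the other strand in GENCODE release 29. Beside SYT2, the overlaps are SNAP47 with JMJD4 (400 bases), SNAP23 with LRRC57 (127), STX18 with NSG1 (91), VAMP1 with TAPBPL (82), STXBP4 with COX11 (21) and SYN1 with ARAF (3). JMJD4 and TAPBPL were at group means below 0.7 FPKM, against at least 1.02 FPKM for VAMP1 and 9.64 FPKM for SNAP47. TIMP1, which lies within an intron of SYN1 on the other strand, was at 44.8 ± 10.1 FPKM under DMSO and 41.8 ± 4.01 FPKM under LBH589 and did not pass (adjusted p = 0.746).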

How the data were processed

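The 6 RNA sequencing libraries (Trizol RNA, Illumina TruSeq RNA kit, per the labels' protocols) were deposited as 1 FPKM value per transcript, per the file headers. The submitters' processing notes list Bowtie 0.12.2 and hg19 with no roles, and how FPKM was estimated and on which annotation is not given in the sources used here. Of 30624 listed transcripts, 30504 were named by identifier through GENCODE release 29, and FPKM was summed per gene. That release is on another build. Its exon positions were used for the exon overlaps and for the SNAP25 and STX1A exons, and none of them are printed. The planned count test did not apply to FPKM. Tests used limma 3.58.1 on log2(FPKM + 1) for genes averaging 0.5 FPKM or more (R 4.3.3, trend, robust moderation, treatment as the only term; Benjamini-Hochberg over all 11520 genes, called below 0.05); transcripts likewise (27042). Log2 differences are LBH589 minus DMSO and understate changes of low genes. On simulated data, changes of 0.5, 1 and 2 on the log2 scale were put into 67, 67 and 66 of 11520 genes, drawn from the better expressed. The test recovered 3.0, 49.3 and 77.3% of these changes, with 6 false calls among the unchanged genes. Far more genes were called in the real data, and many members lie at lower levels, so these rates need not hold for the members.

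The members and lists were chosen with earlier results of these data known. Values per library are given for members called with a log2 difference of at least 1, for those with a higher mean of at least 20 FPKM, and for 18 members named whatever their values, of which SYT1, CPLX2 and RIMS1 were not analysed here. The values of 1 listed member are counted in the totals but are not reported here. In each other list up to 4 tested genes with the smallest adjusted p are named, with REST, and CADPS2, EXOC5, CHGA, COL1A1, LUM, PDGFRA, EPCAM, CD68, NEUROD1, SLC17A7, MAP2, TYRP1, RAB3A, RAB3D, PPP1R12B, JMJD4, TAPBPL and TIMP1 and library values of further members were added after their values were seen. The alternatives were equal library sums, equal medians, quantile normalization, a pseudocount of 0.1, a filter at 5 FPKM or none, plain limma, the most abundant transcript, a replicate block, and each library left out in turn. Promoter sequences are RefSeq's (GRCh38.p14), matched by symbol for 41 of 49 members.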

Additional observations from a re-analysis of the deposited data

How the results depend on the processing

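Of 29 called members, 19 kept call and direction under all alternatives in which they were tested, 10 lost the call under at least 1 and 0 reversed. Of 18 members not called, 8 passed under at least 1. Of 23 other named genes that were called, 6 lost the call under at least 1. The rises of members ranged from 22 to 28 and their falls from 2 to 3 when 1 library was left out, and rises of all genes from 2509 to 3277 and falls from 2056 to 2406. A mean of at least 5 FPKM left 28 members, of which 12 rose, 6866 genes, of which 1844 rose, and 5 risen member transcripts, because fewer features are tested. Member transcripts that rose ranged from 16 to 20 and those that fell from 2 to 3 without 1 library. The replicate numbers do not pair the libraries (correlations of same-numbered deviations -0.10, 0.02 and -0.04); with the replicate block 24 members rose and 2 fell, and 6 member transcripts rose and 1 fell, on fewer residual degrees of freedom.

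Direction turned only in members that were not called: STX10 (0.10, most abundant transcript); STX18 (0.050), STX7 (0.17) and STXBP2 (0.066) with equal sums; STXBP5 (-0.0064), SV2A (-0.035) and VAMP4 (-0.034) after quantile normalization. Without 1 library, log2 differences ranged from -0.38 to 0.071 in STX4, -0.77 to 0.088 in STX5, -0.082 to 0.15 in STX7, -0.20 to 0.086 in STXBP2, -0.043 to 0.33 in SV2A and -0.039 to 0.11 in VAMP4. The cause was not tested.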
